A study of Mus musculus with 8 samples.

Results

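The apolipoprotein genes studied here were Apoa1, Apoc3, Apoa4 and Apoa5, which lie together on mouse chromosome 9, Apoe, Apoc1 and Apoc2, which lie together on chromosome 7, and the separate genes Apob on chromosome 12, Apoa2 on chromosome 1 and Apoh on chromosome 11. They are 10 of the 21911 protein-coding genes of the annotation. Chromatin was read within each gene body and 10 kb on either side, and these windows held 111 of the 315767 consensus regions, where a consensus region is the union of overlapping intervals from any library. A region was counted as a promoter region when it came within 1 kb of an annotated start of the gene, and as distal when it was near no coding gene's start.

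Partial hepatectomy (PHx) removes most of the liver and sets the remaining hepatocytes to grow and divide. Hepatocytes were isolated by collagenase perfusion from C57BL/6 mice aged 10 to 12 weeks on a normal diet, from undamaged liver (0 h) and at 48 h, 72 h and 96 h after PHx, with 2 libraries at each time, and open chromatin was profiled by bulk ATAC-Seq, in which a transposase cuts and tags accessible DNA. The comparisons ask whether accessible sites at these genes differ between regenerating and undamaged liver. In a bulk library, fewer cells with an open site and less opening per cell cannot be told apart.

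Apolipoproteins are the proteins of lipoprotein particles, and the liver makes most of them. Apob is the structural protein of very-low-density and low-density lipoprotein, Apoa1 and Apoa2 are the main proteins of high-density lipoprotein, and Apoe is the ligand by which receptors take up particle remnants. Apoc2 activates lipoprotein lipase, whereas Apoc3 hinders it and Apoa5 favours triglyceride clearance. Their genes are classic targets of the hepatocyte factors HNF4, HNF1, FOXA and C/EBP.

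The lists held 105206 to 154577 distinct intervals per library. Each interval had the fold enrichment over local background and the -log10 p of the peak caller, and intervals were ranked within their own list by -log10 p, so that percentile 100 is the strongest interval of a list. Fold enrichment carries no read count, so the sequencing depth is unknown. The interval at rank 50000 had a -log10 p of 8.05 and 8.62 in the 48 h libraries, 15.2 and 9.96 (0 h), 14.8 and 14.0 (72 h) and 14.5 and 8.29 (96 h), so both 48 h lists, 96 h replicate 2 and 0 h replicate 2 held weaker intervals at that rank than the other 4 lists. Promoters of the hepatocyte markers (9 of 10 genes matched by symbol) were listed for 9 and 9 genes at 0 h, 5 and 7 (48 h), 8 and 7 (72 h) and 9 and 8 (96 h), and that of Alb in 3 libraries in all. Of the macrophage markers, Csf1r, Vsig4 and Marco had no promoter interval in any library, while Cd68 was listed in all 8, Clec4f in 4 and Adgre1 in 1. The leukocyte list had 1 of 5 promoters listed in every library, that of Lck, with a fold enrichment of 10.95 and 10.58 (0 h) and 4.97 to 10.37 after PHx, so it was below both 0 h libraries in all 6 PHx libraries. The endothelial promoters of Stab2 and Lyve1, the stellate promoter of Acta2 and the biliary promoter of Krt19 were in no list, while Pecam1, Kdr, Lrat, Reln, Sox9 and Epcam were in all 8 and the other 6 markers of these lists in 3 to 7. Pecam1 had a fold enrichment of 6.83 and 8.87 (0 h) and 2.45 to 7.39 after PHx, and Kdr had 3.23 and 4.52 (0 h) and 2.74 to 5.32 after PHx. The part of other cell types in the results that follow was not tested.

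The sequences that follow are those of the 3 promoters and 4 distal regions on which the results turn. They are from the RefSeq genome assembly GRCm38.p6 (mm10), and capitals mark matches, on either strand, to the searched letters: HNF4 CAAAGTCCA, nuclear receptor direct repeat CAAAGGTCA, HNF1 GTTAATNAT, FOXA TGTTTAC, C/EBP TTNNGCAA, AP-1 TGANTCA, the insulator factor CTCF with CNAGGGGGC and, for the core promoter box, TATAAA. The promoter windows are the 250 bases before the first start in the basic gene annotation, on the strand of the gene, and none holds bases of a coding gene's exon. The Apoa4 promoter (chr9:46240446-46240695, plus strand) is shown because its interval was the one promoter interval of the 10 genes with an unadjusted p under 0.05 at 48 h, the Apob promoter (chr12:7977398-7977647, plus strand) because its strongest interval was missing from 1 library, and the Apoh promoter (chr11:108395043-108395292, plus strand) because it was the strongest.
Apoa4 promoter: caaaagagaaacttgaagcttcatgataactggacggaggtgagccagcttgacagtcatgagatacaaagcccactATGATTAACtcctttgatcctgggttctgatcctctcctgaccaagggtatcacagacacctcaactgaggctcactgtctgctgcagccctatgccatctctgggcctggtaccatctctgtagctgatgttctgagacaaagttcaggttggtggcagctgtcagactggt
Apob promoter: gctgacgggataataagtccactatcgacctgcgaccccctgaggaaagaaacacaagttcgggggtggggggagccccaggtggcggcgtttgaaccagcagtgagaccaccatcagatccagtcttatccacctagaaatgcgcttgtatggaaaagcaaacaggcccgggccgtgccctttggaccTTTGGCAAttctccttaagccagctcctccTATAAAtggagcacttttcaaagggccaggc
Apoh promoter: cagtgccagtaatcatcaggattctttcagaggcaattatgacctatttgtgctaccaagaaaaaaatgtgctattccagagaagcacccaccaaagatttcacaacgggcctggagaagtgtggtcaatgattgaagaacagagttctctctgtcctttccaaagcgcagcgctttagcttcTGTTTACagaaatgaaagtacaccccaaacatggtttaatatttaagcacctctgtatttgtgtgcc

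The Apoa4 window held 1 HNF1 match at positions -173 to -165 from the start, and such a match was found in 0.675% of the 21911 protein-coding promoters. The whole Apoa4 window also lies in an antisense transcript record, Gm47528, that the annotation marks as still to be tested by experiment. The Apob window held TATAAA at -31 to -26 and a C/EBP match at -61 to -54, found in 11.4% and 9.05% of promoters. The Apoh window held a FOXA match at -67 to -61, found in 2.59% of promoters.

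The distal windows are 200 bases around the summit, on the plus strand. The Apoe, Apoa4 and Apoa5 windows are intergenic. The Apoh window lies inside the annotated Apoh gene record, upstream of the start of the basic transcript, and holds no annotated exon. The Apoe upstream region (chr7:19701069-19701268) was the highest ranked distal region, the Apoa4 downstream region (chr9:46246904-46247103) had the highest fold enrichment of the chromosome 9 cluster, and the Apoa5 upstream region (chr9:46259100-46259299) and the Apoh upstream region (chr11:108385335-108385534) were lower after PHx.
Apoe upstream region: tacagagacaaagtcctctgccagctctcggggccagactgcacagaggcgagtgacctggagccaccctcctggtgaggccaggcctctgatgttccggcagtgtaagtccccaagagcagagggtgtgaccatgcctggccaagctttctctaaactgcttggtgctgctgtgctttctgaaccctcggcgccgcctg
Apoa4 downstream region: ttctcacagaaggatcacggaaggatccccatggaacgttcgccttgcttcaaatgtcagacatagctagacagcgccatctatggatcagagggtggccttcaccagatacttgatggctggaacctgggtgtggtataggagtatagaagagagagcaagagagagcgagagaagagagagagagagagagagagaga
Apoa5 upstream region: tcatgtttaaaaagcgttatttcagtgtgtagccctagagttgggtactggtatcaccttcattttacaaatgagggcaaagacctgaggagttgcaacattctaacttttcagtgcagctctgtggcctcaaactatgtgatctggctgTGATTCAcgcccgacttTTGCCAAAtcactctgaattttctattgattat
Apoh upstream region: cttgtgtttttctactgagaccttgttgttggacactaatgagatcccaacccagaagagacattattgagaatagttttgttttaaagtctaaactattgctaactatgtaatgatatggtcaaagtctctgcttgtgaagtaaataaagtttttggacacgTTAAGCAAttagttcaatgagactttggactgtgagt

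The Apoa5 upstream window held an AP-1 match and a C/EBP match, which were present in 8.87% and 15.1% of the 44011 distal windows of the same length in the series. The Apoh upstream window held 1 C/EBP match. The Apoe upstream and Apoa4 downstream windows held none of the searched letters, and other forms of these motifs were not searched. A match is a run of letters and not a bound site.

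Apolipoprotein promoters were of middling strength in these lists, and most genes had a stronger distal region nearby. A promoter interval was listed in all 8 libraries for 6 of the 10 genes (Apoa1, Apoc3, Apoa4, Apoc2, Apoa2 and Apoh), against 61% of protein-coding genes. The mean promoter percentile, counting an absent interval as 0, had a median of 57.8 over the 10 genes and 75.3 over all protein-coding genes. In 8 of the 10 genes a distal region of the window ranked above the promoter, against 39.3% of protein-coding genes. Those 8 genes shared 5 distinct distal regions, so they are not 8 separate observations. When regions were ranked by fold enrichment, the count was 9, against 43.2% of protein-coding genes.

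The windows were dense in regions listed in all 8 libraries. The median over the 10 genes was 1.79 such regions per 10 kb, against 0.418 over protein-coding genes. Windows within a cluster overlap, so the 10 genes are not 10 separate observations. By density the genes stood above 67.8% (Apob) to 99.8% (Apoa2) of protein-coding genes. By the number of such regions in the window they stood above 39.5% (Apoa5) to 95.9% (Apoh). The Apoa2 window held 2.34 per 10 kb and the Apob window 0.676 per 10 kb, the highest and the lowest of the 10. Over all windows, 35 of 111 regions (31.5%) were in all 8 lists, against 18.2% of the series, and 26 (23.4%) were in 1 list, against 52.5% of the series. The 35 regions were 8 member promoter regions, 8 regions at a neighbouring gene's promoter and 19 distal regions.

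**Figure D1:**
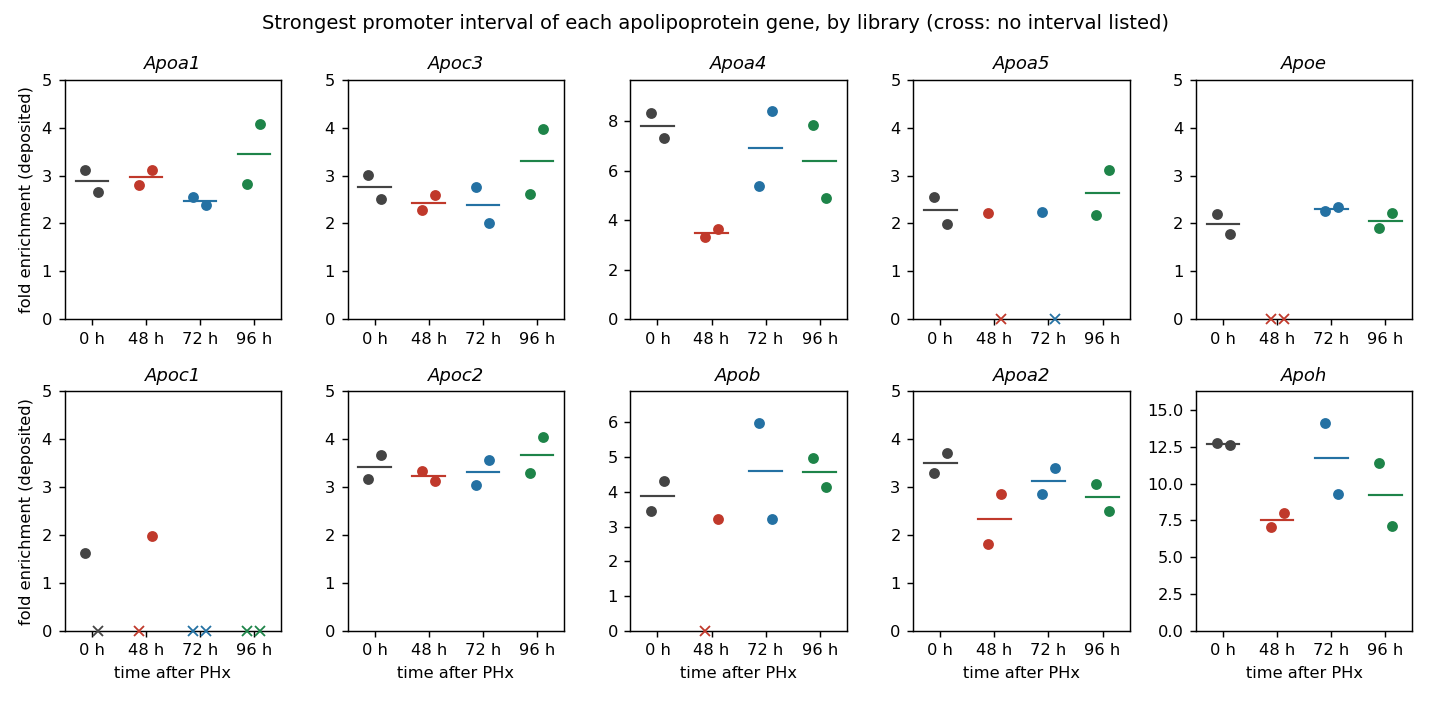
Fold enrichment of the strongest promoter interval of each of the 10 apolipoprotein genes (vertical axes, each starting at 0) in the 2 libraries at each time after PHx. Points are libraries, lines are means of the 2 libraries where both are listed, and crosses mark libraries with no listed interval. Apoh and Apoa4 have the highest values, and the Apoe promoter has no interval in either 48 h library.

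In the chromosome 9 cluster, Apoa4 had the promoter with the highest fold enrichment and Apoa5 that with the lowest, while by mean percentile Apoa1 (71.3) stood above Apoa4 (65.8). Apoa4, an apolipoprotein of intestine and liver, had a promoter region at chr9:46240527-46241547 with a fold enrichment of 8.32 and 7.32 (0 h), 3.34 and 3.65 (48 h), 5.4 and 8.41 (72 h) and 7.85 and 4.91 (96 h). The 48 h libraries lay below all others, and the 72 h and 96 h libraries overlapped those of 0 h. The group means were 7.82 ± 0.706 at 0 h and 3.49 ± 0.221 at 48 h (SD, n = 2 each). Its rank in the list went from 24687 and 27569 (0 h) to 76935 and 69277 (48 h). After quantile normalisation the log2 difference was -0.87 ± 0.32 (SE) with an unadjusted p of 0.0143, and limma's adjusted p over all 57473 fitted regions was 0.374, so the difference did not pass the test. Both 72 h libraries were above both 48 h libraries.

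The Apoa1 promoter at chr9:46228556-46229019, which overlaps the start of the gene's first exon, had a fold enrichment of 3.12 and 2.66 (0 h), 2.80 and 3.12 (48 h), 2.56 and 2.39 (72 h) and 2.81 and 4.07 (96 h). In deposited values the groups overlapped at 48 h, and 96 h replicate 2 was the highest. The log2 difference at 48 h was 0.20 ± 0.26 (SE, limma adjusted p = 0.847), and leaving out 1 library gave 0.11 (0 h replicate 2 or 48 h replicate 2) to 0.30 (48 h replicate 1). The Apoc3 promoter region at chr9:46235096-46235577 had 3.0 and 2.5 (0 h), 2.28 and 2.59 (48 h), 2.77 and 2.01 (72 h) and 2.62 and 3.98 (96 h), with a log2 difference at 48 h of -0.05 ± 0.26 (limma adjusted p = 0.968), which ran from -0.19 to 0.067 when 1 library was left out. All its groups overlapped that of 0 h. The Apoa5 promoter interval (chr9:46268406-46268819) was in 6 lists, missing from 48 h replicate 2 and 72 h replicate 2, with values of 1.99 to 3.11 where listed.

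The strongest distal region of the cluster by rank was a 2538 bp region (chr9:46229764-46232301). It overlaps the 3' end of Apoa1 and reaches into the space before the facing 3' end of Apoc3. Its fold enrichment was 3.49 and 4.40 (0 h), 3.20 and 3.5 (48 h), 4.51 and 3.75 (72 h) and 3.22 and 3.32 (96 h). In deposited values both 96 h libraries were below both 0 h libraries and the other times overlapped 0 h, and after normalisation all 3 times overlapped 0 h. The region held 2 to 7 summits per library. The second was a narrow region 6308 bases downstream of the Apoa4 start (chr9:46246845-46247125), with 12.1 and 9.40 (0 h), 8.17 and 9.08 (48 h), 12.9 and 9.94 (72 h) and 7.98 and 7.77 (96 h). Its value exceeded that of the Apoa4 promoter in each of the 8 libraries, and its rank ran from 18884 to 37886. The 48 h and 0 h libraries overlapped after normalisation, and both 96 h libraries were below those of 0 h.

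The third distal region lay 9433 bases upstream of the Apoa5 start (chr9:46259060-46259675), and it was lower in all 6 PHx libraries than in both 0 h libraries. It had a fold enrichment of 4.94 and 4.38 (0 h), 3.20 and 2.12 (48 h), 3.52 and 4.11 (72 h) and 3.99 and 3.77 (96 h). The log2 difference at 48 h was -0.63 ± 0.29 (unadjusted p = 0.0433, limma adjusted p = 0.474), and leaving out 48 h replicate 2 gave -0.28, while leaving out 48 h replicate 1 gave -1.03. A wide region that overlaps the 3' end of Apoa5, at the promoter of Zpr1, a zinc finger protein gene (chr9:46271279-46273710), was the highest ranked of the windows on chromosome 9. Its fold enrichment was between 4.65 and 5.68 in the 8 libraries.

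**Figure D2:**
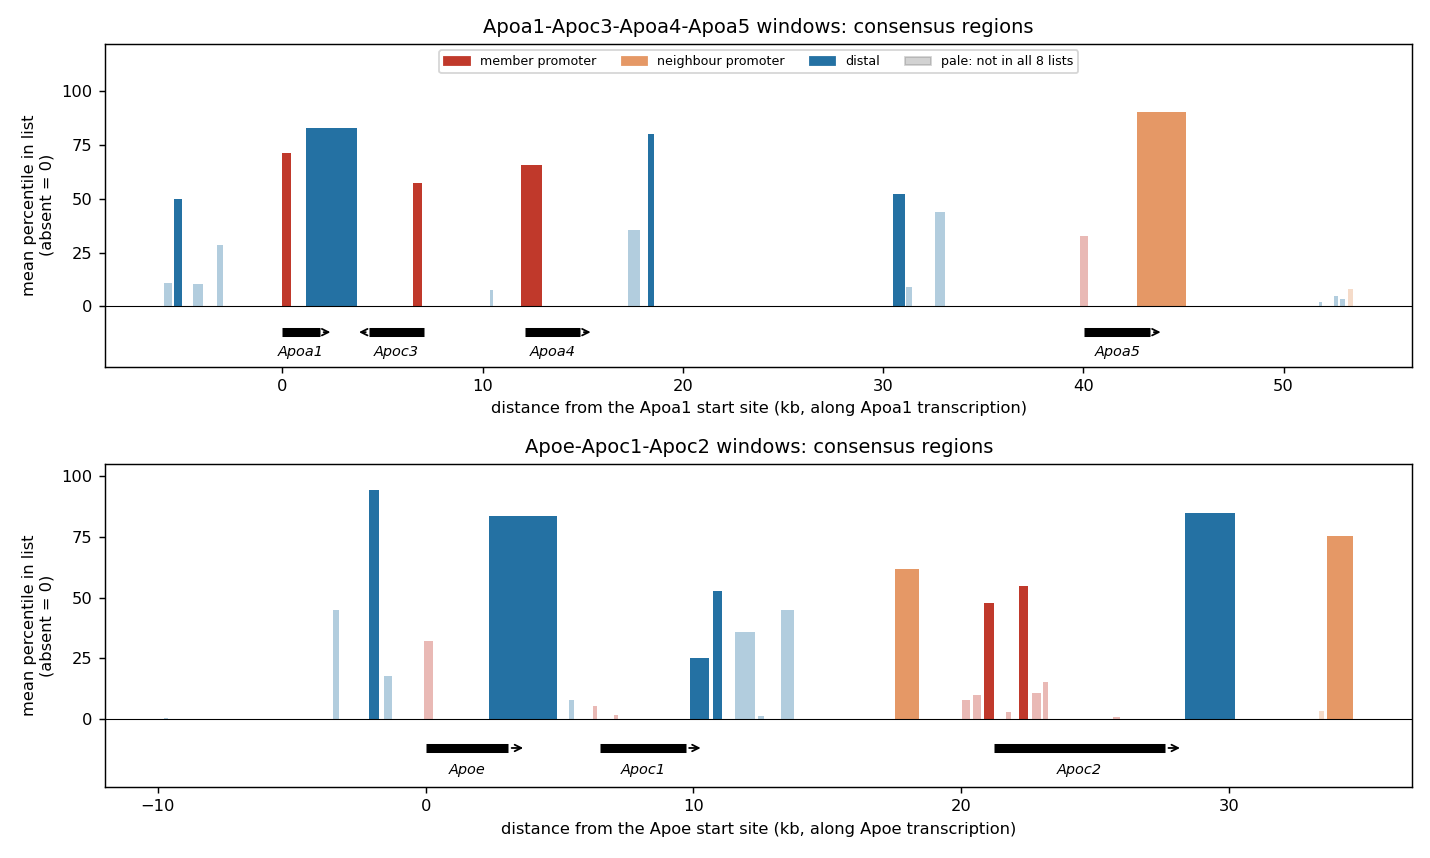
Consensus regions in the windows of the chromosome 9 and chromosome 7 clusters, placed by distance in kb from the Apoa1 or Apoe start (horizontal axes) with height equal to the mean percentile over 8 lists, an absent interval counting as 0. Red, orange and blue bars are member promoters, neighbouring promoters and distal regions, black bars are genes with arrows for the direction of transcription, and pale bars are regions not in all 8 lists. The tallest bars lie between or beside the genes and not at the member starts.

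The chromosome 7 cluster had weak promoters at Apoe and Apoc1 and a middling one at Apoc2 (mean percentile 58.4), beside strong distal regions. The Apoe promoter interval (chr7:19698893-19699265) was listed at 2.20 and 1.78 (0 h), in neither 48 h library, at 2.26 and 2.35 (72 h) and at 1.89 and 2.21 (96 h). Where listed it stood at percentiles of 31.5 to 53.7. Absence from a list shows only that no interval passed the caller's threshold there. Apoc1 codes for a small apolipoprotein that inhibits lipid transfer and lipases. Near its start intervals were listed only in 0 h replicate 1 (1.62) and 48 h replicate 2 (1.97), and these were 2 separate regions.

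Apoc2 had 2 promoter regions in all 8 lists. The one at the middle start (chr7:19676676-19677033) had a fold enrichment of 3.17 and 3.68 (0 h), 3.34 and 2.76 (48 h), 2.72 and 3.58 (72 h) and 3.29 and 3.42 (96 h). The one at the upstream start (chr7:19677943-19678335), which overlaps the end of the neighbouring Apoc4 gene, had 2.77 and 3.02 (0 h), 1.94 and 3.13 (48 h), 3.05 and 3.35 (72 h) and 3.07 and 4.06 (96 h). Both groups of values overlapped between 48 h and 0 h, and the log2 differences were 0.02 ± 0.27 and -0.12 ± 0.28 (limma adjusted p = 0.989 and 0.925), which ran from -0.15 to 0.20 and from -0.53 to 0.28 when 1 library was left out.

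The region 1981 bases upstream of the Apoe start (chr7:19700930-19701316) was the highest ranked distal region of all 5 loci, with a mean percentile of 94.2. Its fold enrichment was 6.93 and 6.48 (0 h), 6.61 and 5.75 (48 h), 9.54 and 8.21 (72 h) and 6.63 and 8.16 (96 h), and its rank ran from 3146 to 12480. Both 72 h libraries were above those of 0 h, and limma's adjusted p for that comparison was 0.876. The best distal region of Apoc1 was this same region, and that of Apoc2 was a region 4255 bases downstream of one of its starts (chr7:19668945-19670823), with 5.71 and 5.54 (0 h), 5.90 and 6.20 (48 h), 6.07 and 6.28 (72 h) and 5.80 and 8.55 (96 h). All 6 PHx libraries exceeded the 0 h libraries there before normalisation, and after it 96 h overlapped 0 h. A wide region between Apoc1 and Apoe that overlaps the 3' end of Apoe (chr7:19694284-19696832) had values of 3.37 to 4.98.

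A weak region 3594 bases downstream of the Apoc1 start (chr7:19688601-19689309), one of the 5 regions with an unadjusted p under 0.05 at 48 h, had 1.61 and 1.91 (0 h), 3.11 and 1.89 (48 h), 2.76 and 1.68 (72 h) and 2.13 and 2.08 (96 h). The 48 h values lay far apart, and in deposited values 48 h replicate 2 fell within the 0 h range. The log2 difference was 0.56 ± 0.25 (unadjusted p = 0.0363, limma adjusted p = 0.457), and leaving out 48 h replicate 1 gave 0.15, while leaving out 48 h replicate 2 gave 0.98.

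Apob had a promoter of modest strength and many weak intervals through its body. Of its 2 promoter regions the stronger (chr12:7977453-7978091) had 3.44 and 4.32 (0 h), was missing from 48 h replicate 1 and listed at 3.21 in 48 h replicate 2, and had 6.00 and 3.23 (72 h) and 4.99 and 4.13 (96 h). The other, just inside the gene (chr12:7978443-7978761), had 2.26 and 2.63 (0 h), no interval in either 48 h library, 2.59 and 2.49 (72 h) and 2.82 and 3.74 (96 h). Because libraries were missing, neither entered the fit. In 48 h replicate 1, 5 of 9 hepatocyte marker promoters were listed. Inside the gene body 28 regions were listed in at least 1 library, 16 with the summit in an intron and 12 in a coding exon, with fold enrichments of 1.41 to 3.74. Of these, 3 were in all 8 lists, and the 2 with the highest mean percentile (chr12:7983485-7984757 and chr12:8004559-8005280) had values of 1.83 to 2.32 and 1.72 to 2.61. The strongest distal region lay beyond the 3' end of Apob (chr12:8016998-8019781), at 4.05 and 3.83 (0 h), 4.08 and 3.97 (48 h), 4.99 and 3.96 (72 h) and 4.13 and 4.02 (96 h). Apart from 72 h replicate 1 the values lay within 3.83 and 4.13.

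Apoa2 sits among other genes, and its window held 5 regions in all 8 lists, of which 1 was near an Apoa2 start. The region just upstream of its starts (chr1:171223842-171224158) had 3.30 and 2.81 (0 h), 1.80 and 2.86 (48 h), 2.86 and 3.39 (72 h) and 3.06 and 2.51 (96 h), with 48 h replicate 1 the lowest. The log2 difference at 48 h was -0.31 ± 0.26 (limma adjusted p = 0.735), and it turned to 0.065 with 48 h replicate 1 left out and was -0.69 with 48 h replicate 2 left out. Over the other processing alternatives it ran from -1.08 with -log10 p as the value to -0.030 with median centring. The interval over the start itself (chr1:171224847-171225391) had 3.12 and 3.72 (0 h), 2.20 in 48 h replicate 2 with none in 48 h replicate 1, 2.24 and 3.01 (72 h) and 2.90 and 1.82 (96 h), so both 0 h libraries were above every PHx library that listed it. It did not enter the fit. The distal regions downstream of Apoa2 were weak, and the strongest (chr1:171226948-171228080) was in 7 lists at 2.01 to 3.69.

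The largest positive log2 difference at 48 h in the windows was at a neighbouring gene. Tomm40l codes for a protein of the mitochondrial import channel family, and a region near its start, 4040 bases upstream of Apoa2 (chr1:171220846-171221611), had 4.25 and 3.53 (0 h), 5.89 and 5.68 (48 h), 3.90 and 5.75 (72 h) and 4.57 and 3.64 (96 h). Both 48 h libraries were above both 0 h libraries, at ranks of 6462 and 8330 against 27225 and 32703. The log2 difference at 48 h was 0.91 ± 0.31, with an unadjusted p of 0.00832 and a limma adjusted p of 0.344, the smallest of the 35 regions at that time. Another fitted region at a neighbouring gene's promoter, 2416 bases upstream of Apoa2, had a log2 difference of -0.093 at 48 h. The promoter region of Nr1i3, the xenobiotic receptor CAR, was lower in both 48 h libraries than at 0 h (3.54 and 3.10 against 6.57 and 4.40).

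Apoh, also called beta-2-glycoprotein I, had the strongest promoter of the 10 genes. The region over its start (chr11:108394690-108395571) had 12.8 and 12.6 (0 h), 7.03 and 7.67 (48 h), 14.1 and 9.28 (72 h) and 11.4 and 7.12 (96 h). The 48 h and 96 h libraries were below those of 0 h, while 72 h overlapped. In deposited values the mean went from 12.7 ± 0.0991 at 0 h to 7.35 ± 0.454 at 48 h (SD, n = 2 each), and after normalisation the log2 difference was -0.36 ± 0.27 (unadjusted p = 0.189, limma adjusted p = 0.689). The median fold enrichment of the whole list was also lower at 48 h (3.95 and 3.73) than at 0 h (4.55 and 5.07). A second region in an intron (chr11:108395835-108396796) had 6.07 and 6.31 (0 h), 4.52 and 8.02 (48 h), 6.11 and 4.16 (72 h) and 5.47 and 5.19 (96 h).

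The lowest p of the PHx comparison was at a region 9858 bases upstream of the Apoh start (chr11:108384870-108385900), singled out after its values were seen. Its fold enrichment was 7.68 and 12.0 (0 h), 3.91 and 4.10 (48 h), 6.58 and 5.72 (72 h) and 4.77 and 4.09 (96 h), so all 6 PHx libraries were below both 0 h libraries. The log2 difference was -0.90 ± 0.31 at 48 h, -0.58 ± 0.31 at 72 h, -0.97 ± 0.31 at 96 h and -0.82 ± 0.26 for the 3 PHx times together (SE). The limma adjusted p values were 0.35, 0.843, 0.758 and 0.434 in that order, so none passed. Without 0 h replicate 2, the higher of the control libraries, the difference was -0.58 at 48 h, -0.64 at 96 h and, for the PHx times together, -0.49, with a limma adjusted p that rounds to 1.0.

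The Apoh locus also held distal regions with high fold enrichment in which the PHx libraries were not all below 0 h. The region 29942 bases upstream (chr11:108364907-108365569) had 13.3 and 9.29 (0 h), 9.54 and 13.8 (48 h), 14.6 and 11 (72 h) and 10.8 and 8.18 (96 h). The region 36167 bases upstream (chr11:108358789-108359289) had 8.54 and 4.64 (0 h), 4.97 and 6.34 (48 h), 14.0 and 11.4 (72 h) and 13.8 and 3.68 (96 h). Both 72 h libraries were above 0 h there (log2 difference 1.05 ± 0.41, unadjusted p = 0.0188, limma adjusted p = 0.701), and the 96 h replicates lay far apart. Leaving out 0 h replicate 2 gave a difference of 0.68 at 72 h, and leaving out 0 h replicate 1 gave 1.41. The region 17049 bases upstream (chr11:108378007-108378542) ranged from 3.68 to 10.9 with overlapping groups. The annotated gene record of Apoh begins at a region shared with the promoter of Prkca, a protein kinase C gene (chr11:108342760-108344472), which had 16.1 and 13.8 (0 h), 7.36 and 8.69 (48 h), 13.1 and 8.97 (72 h) and 12.6 and 11.7 (96 h). Its summit lay 51415 bases upstream of the Apoh start. The regions 29942 and 36167 bases upstream lay nearer to that summit than to the Apoh start.

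**Figure D3:**
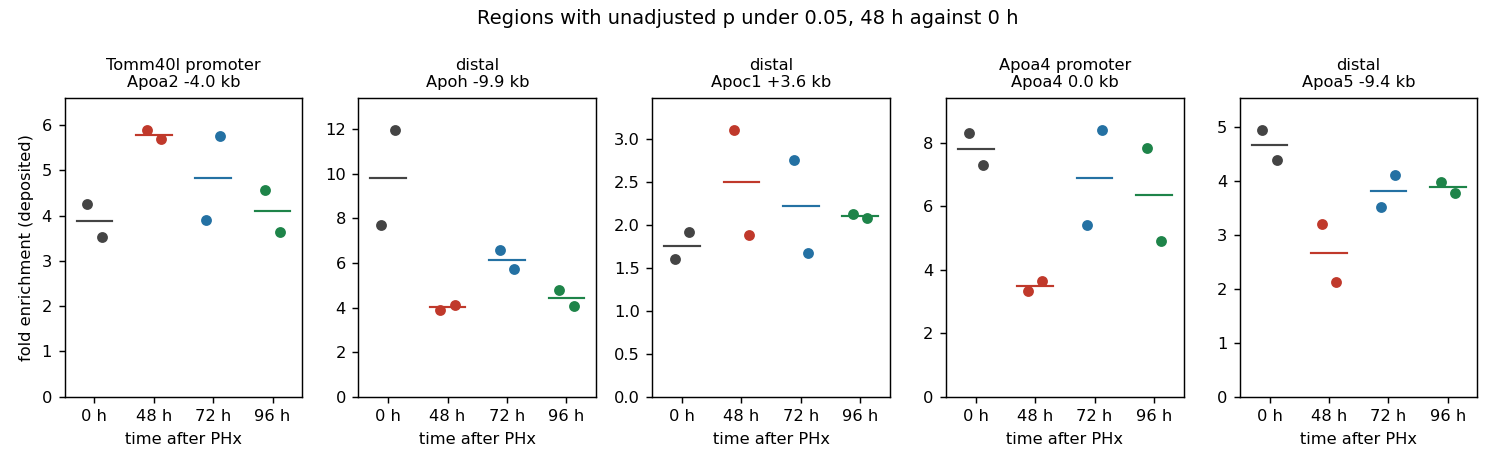
Fold enrichment (vertical axes, each starting at 0) by library at each time after PHx for the 5 regions with an unadjusted p under 0.05 between 48 h and 0 h. Points are libraries and lines are means of 2 libraries. The Apoa4 promoter and the regions upstream of Apoh and Apoa5 are lower in both 48 h libraries. The region near the Tomm40l start, 4040 bases upstream of Apoa2, is higher.

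Over the 35 regions fitted, no difference passed the adjusted threshold at any time, and none did among the 57473 regions of the series (background 0% in each comparison). At an unadjusted p under 0.05, 5 of the 35 regions differed at 48 h against a background of 10.1%, 1 at 72 h against 6.25%, 1 at 96 h against 5.65% and 1 for the PHx times together against 7.81%. The moderated F test over the 3 times gave 0 adjusted calls and unadjusted p values under 0.05 for 2 regions against a background of 7.68%. At 48 h the libraries did not overlap those of 0 h at 17 of 35 regions after normalisation, 7 lower and 10 higher, where 41.1% of all regions did so (20.3% lower and 20.8% higher). At 72 h the count was 11 against 38.4%, with 6 lower (20% of all regions) and 5 higher (18.4%). At 96 h it was 9 against 32.9%, with 5 lower (16.7%) and 4 higher (16.2%). For all 6 PHx libraries it was 3 against 9.09%, with 3 lower (4.58%) and 0 higher (4.5%). At 2 of the 35 regions the libraries were all above 0 h at one time and all below at another, against 5.61% of all regions.

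After normalisation the 3 regions below 0 h in every PHx library were those upstream of Apoa5 and Apoh and the Prkca promoter, and no region was above 0 h in every PHx library. The promoter of the leukocyte marker Lck was likewise below 0 h in every PHx library, and its part in these results was not tested. The median log2 difference of the 35 regions was 0.02 at 48 h, 0.05 at 72 h and 0.04 at 96 h, beside 0.00, -0.02 and 0.00 over all regions. At 48 h the median was -0.09 over the 8 promoter regions and 0.11 over the 19 distal regions. By locus at 48 h, the Apoe cluster had 7 of 9 regions above 0 and 2 below, with a median of 0.15. Of all fitted regions 49.7% were below 0 at that time. The other loci had medians from -0.09 to 0.05. The median SE of a 48 h difference was 0.30. The smallest two-sided p that an exact permutation test of 2 libraries against 2 can give is 0.3333, so none was run.

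**Figure D4:**
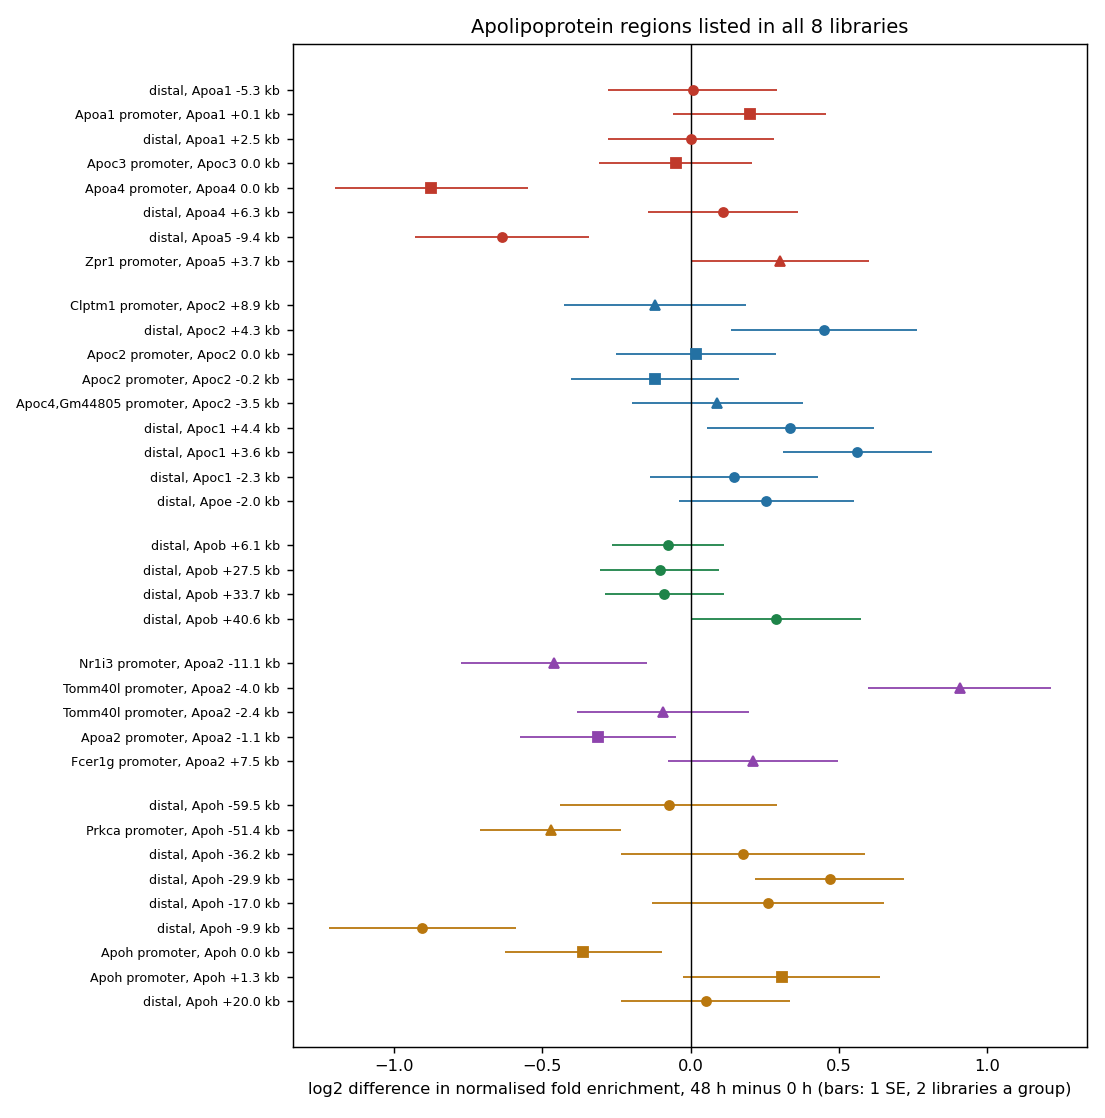
Log2 difference in normalised fold enrichment between 48 h and 0 h (horizontal axis) for the 35 regions listed in all 8 libraries, grouped by locus from the chromosome 9 cluster at the top to Apoh at the bottom. Points are estimates from 2 libraries per group, bars are 1 SE, and squares, triangles and circles are member promoters, neighbouring promoters and distal regions. The values scatter on both sides of 0, from -0.90 upstream of Apoh to 0.91 at the region 4040 bases upstream of Apoa2, near the Tomm40l start.

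Promoters of other lipoprotein genes were mostly listed in every library, and none of those fitted passed the adjusted test at any time. The counts without overlap that follow are of normalised values, beside 20.8% of all fitted regions above 0 h and 20.3% below at 48 h. Of 6 other apolipoprotein genes 5 had a promoter in all 8 lists, with a median log2 difference at 48 h of -0.01, and at 48 h 1 was below 0 h without overlap. That was Clu, a secreted chaperone also called apolipoprotein J, with a fold enrichment of 5.12 and 7.27 (0 h) and 2.76 and 4.05 (48 h). All 5 genes of particle assembly and secretion were listed in all 8 libraries, and their median percentile ran from 87.8 to 95.4 over the libraries. Mttp, which loads lipid onto apolipoprotein B, had 11.1 and 9.65 (0 h) and 10.9 and 11.1 (48 h), and after normalisation it was the 1 gene of the 5 above 0 h without overlap.

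Of 9 lipase and remodelling genes 6 were in all 8 lists, with a median log2 difference of 0.37 at 48 h, and 3 of the 6 (Lcat, Lipg and Pltp) were above 0 h without overlap after normalisation. In deposited values both 48 h libraries were below both 0 h libraries at Lcat, the cholesterol-esterifying enzyme of high-density lipoprotein (8.73 and 11.3 against 12.3 and 12.2). Pltp, the phospholipid transfer protein, had 4.80 and 3.57 (0 h) and 4.31 and 4.67 (48 h), which overlap before normalisation. All 10 genes of receptors and lipid export were fitted, with a median log2 difference of 0.15 at 48 h. Of these 3 were above 0 h without overlap after normalisation and 2 below. Abcg1, a cholesterol exporter, had 7.36 and 4.64 (0 h) and 6.20 and 6.81 (48 h), which overlap before normalisation. Sdc1, a heparan sulphate proteoglycan, had 5.23 and 7.13 (0 h) and 3.78 and 3.45 (48 h), both lower than either 0 h library.

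Of 11 regulators of apolipoprotein genes 9 were fitted, with a median log2 difference of -0.04 at 48 h, 1 above (Cebpa) and 1 below (Rora) without overlap after normalisation. Cebpa, which codes for a C/EBP factor, had 2.56 and 2.99 (0 h) and 3.04 and 4.62 (48 h). Over the 5 lists the log2 differences at 48 h ran from -0.62 at Clu to 0.62 at Cebpa. Beside these medians, that of all fitted regions at 48 h was 0.00.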

How the data were processed

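ATAC-Seq intervals of 8 libraries (4 times, 2 libraries each) were analysed. The authors aligned reads to mm10 with Bowtie2, removed duplicates, shifted tags for Tn5 insertion, called peaks per library with MACS2 at p 0.01 and removed blacklisted intervals, and tool versions are not given in the sources used here. The deposited lists give fold enrichment as a ratio over local background and -log10 of the p-value and q-value. The deposited display score of each interval was not used. They hold no read counts, so depth is unknown and the study's count-based test was replaced. The study describes more replicates at 0 h and 48 h than the 2 analysed here.

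Rows were collapsed to distinct intervals and ranked by -log10 p. Intervals sharing at least 1 bp were merged, and log2 fold enrichment of the 57473 regions listed in all 8 libraries was quantile normalised and fitted with limma 3.58.1 (R 4.3.3, empirical Bayes with trend, no covariate), with Benjamini-Hochberg adjustment over all regions and a threshold of 0.05. Genes were from the basic set of GENCODE M21 (GRCm38) and sequence from RefSeq GRCm38.p6. The fit was tested on simulated data. Named were all 10 genes, the 3 highest ranked distal regions per locus, neighbouring promoters and, per gene list, up to 4 promoters with the largest difference at 48 h, and other regions were chosen after their values were seen. The members and lists were chosen with earlier results of these data known. The labels name no animals, so p-values measure only the spread between these libraries. Alternatives were median centring, -log10 p as the value, the 50000 strongest intervals, q under 0.05, 200 bp around summits, absent intervals set to a floor, 50% cover, a replicate block and leaving out each library. The file of 72 h replicate 2 lacks a flow cell label that the other 7 share.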

Additional observations from a re-analysis of the deposited data

Results flagged for a closer look

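At 2 of the 35 regions every library of one time lay above, and every library of another time below, both 0 h libraries in normalised values, as 5.61% of all fitted regions did, so the count is near the background. The Apoa1 promoter had a log2 difference of 0.20 at 48 h and -0.21 at 72 h, and the fitted difference of 72 h from 48 h was -0.40 ± 0.26 (SE, limma adjusted p = 0.793). The other was a region at a neighbouring gene's promoter, 2416 bases upstream of Apoa2 (chr1:171222342-171222859). Its fold enrichment was 4.28 and 3.83 (0 h), 3.19 and 3.40 (48 h), 3.53 and 3.41 (72 h) and 4.31 and 5.70 (96 h). Its log2 differences were -0.093 (48 h), -0.22 (72 h) and 0.35 (96 h). The fitted difference of 96 h from 48 h was 0.44 ± 0.29 (limma adjusted p = 0.776), and that of 96 h from 72 h was not tested. Groups of 2 libraries were too small to test for an outlying library.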

How the results depend on the processing

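No member region passed the adjusted threshold under any alternative. The median log2 difference of member regions at 48 h, 72 h, 96 h and the PHx times together was 0.23, 0.12, 0.087 and 0.13 with median centring and -0.14, -0.25, -0.30 and -0.33 with -log10 p as the value, so its sign depends on the measure. It was 0.12, 0.18 and, for PHx, 0.10 with the 50000 strongest intervals (13 regions), 0.10 at 48 h with q under 0.05, 0.10 at 72 h with summits, -0.20, -0.14 and -0.17 at 72 h, 96 h and PHx with absent intervals at the floor (85 regions), and 0.077, -0.026 and 0.11 at 48 h, 72 h and 96 h with 50% cover (10 regions). Leaving out 1 library gave -0.043 to 0.067 at 48 h, -0.020 to 0.073 at 72 h, 0.0020 to 0.042 at 96 h and 0.0037 to 0.061 for PHx. Non-overlapping regions made up 48.6%, 31.4%, 25.7% and 8.57% of the 35 at 48 h, 72 h, 96 h and PHx. With the strongest intervals they were 9, 5, 7 and 3 of 13 (69.2%, 38.5%, 53.8% and 23.1%, beside 41.0%, 38.2%, 32.2% and 8.97% of all regions in that fit). With median centring they were 15 of 35 at 96 h (42.9% beside 32.7%) and 6 for PHx (17.1% beside 9.72%), with summits 11 of 25 at 48 h (44.0% beside 41.4%), with the floor 32, 31, 16 and 7 of 85 (37.6%, 36.5%, 18.8% and 8.24% beside 27.6%, 31.1%, 24.9% and 6.24%) and with 50% cover 5, 4, 5 and 2 of 10 (beside 41.6%, 38.0%, 32.4% and 8.73%). With 1 library left out they were 17 to 30, 11 to 26, 9 to 26 and 3 to 10, highest without 48 h replicate 2 (beside 72.9% of all regions), 72 h replicate 2 (67.5%), 96 h replicate 1 (70.9%) and 0 h replicate 2 (23.3%) in that order, where a group of 1 overlaps less by construction. With the strongest intervals the windows held 44 regions and 1 member promoter was in all 8 lists. The cause was not tested.

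Among differences at 48 h, the upstream Apoc2 promoter was 0.16 with median centring and 0.20 with the floor, the Apoc3 promoter 0.22 with median centring, the middle Apoc2 promoter -0.13 with -log10 p, -0.014 with q under 0.05 and -0.021 with the floor, and the Apoa1 promoter -0.17 with -log10 p. Leaving out 1 library also turned the sign of the middle Apoc2 promoter (-0.15 to 0.20), the Apoc3 promoter (-0.19 to 0.067), the Apoa2 promoter (-0.69 to 0.065), the upstream Apoc2 promoter (-0.53 to 0.28) and the second Apoh region (-0.092 to 0.71). Deviations of same-numbered libraries correlated at 0.12 between 0 h and 96 h and at -0.055 to 0.015 in the other 5 pairs of times, so not every pair was over 0.1 and the number was not taken as a pairing. With the replicate block 0 member regions were called and the medians were 0.02, 0.05, 0.04 and 0.02, and 3 regions of the whole series were called at 48 h. With -log10 p as the value, the whole series had 15 regions called at 48 h, 1 at 72 h, 0 at 96 h and 27 for the PHx times together.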

Other observations

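Among the 50000 strongest intervals of each library, those in the window of the chromosome 9 cluster covered 8173 and 8435 bp (0 h), 4706 and 5604 bp (48 h), 6726 and 7458 bp (72 h) and 5974 and 4136 bp (96 h). Both 0 h libraries covered more than every PHx library there. At each of the other 4 loci at least 1 PHx library covered more than a 0 h library. The share of other gene windows with such a separation was not computed. Whether it is particular to the chromosome 9 cluster was therefore not tested. The window of the Apoe cluster had 4318 and 7150 bp (0 h) and 6576 and 3549 bp (48 h), and that of Apoa2 had 1876 and 1588 bp (0 h) and 1930 and 1988 bp (72 h). Apob had 2863 and 4063 bp (0 h) with 3413 bp in 96 h replicate 1, and Apoh had 4541 and 4064 bp (0 h) with 4537 bp in 72 h replicate 2. With all intervals both 0 h libraries covered more than every PHx library in the windows of the chromosome 9 cluster and of the Apoe cluster (8134 and 9090 bp against 6161 to 8082 bp), and not at the other 3 loci. This too has no share of other windows beside it. Over the whole genome all intervals covered 52.2 and 44.0 Mb (0 h), 42.0 and 54.2 Mb (48 h), 53.5 and 62.9 Mb (72 h) and 58.1 and 44.0 Mb (96 h). The means in the chromosome 9 window were 9989.5 ± 295 bp at 0 h, 8478 ± 1022 bp at 48 h, 9147 ± 440 bp at 72 h and 8415.5 ± 1604 bp at 96 h (SD, n = 2 each).

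Of 13254 promoters of other genes in all 8 lists, those whose values over the 8 libraries were most like the mean of 6 apolipoprotein promoters were Hebp1 (Pearson r 0.953), Rbm38 (0.949), Gpx1 (0.945), Hdac1 (0.941) and C8g (0.936). These are the highest of many correlations over points that share their libraries and are given as a description.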
